A study of Mus musculus with 4 samples.

Results

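The miR-181 family was followed in small RNA libraries of the mouse main olfactory epithelium, the tissue that holds the olfactory sensory neurons and their supporting and stem cells. Rows of the authors' deposited table were taken as family members by name, as miR-181a, b, c or d with either arm. The rule found 10 of 1167 rows, 6 of miR-181a and miR-181b and 4 of miR-181c and miR-181d. 7 of them had been named with the rule, and miR-181b-1-3p, miR-181b-2-3p and miR-181d-3p were the other 3 that it matched.

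The libraries came from male C57BL/6 mice, 3 months old. 2 were wild type, and 2 came from AC3-/- mice, which lack adenylyl cyclase 3, the enzyme that turns odorant receptor activation into cAMP in olfactory sensory neurons. The labels do not say how the AC3 allele was made, in which cells it acts, or whether each library came from 1 mouse or a pool, so p-values speak for the spread among these libraries alone, and that spread may be technical. The mRNA of AC3 is not part of small RNA data, and the genotype was not checked.

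A miRNA is cut from a hairpin precursor into a 5p and a 3p strand, and the strand that is kept in an Argonaute protein pairs with mRNAs mainly through its seed, bases 2 to 8 from the 5′ end. The 4 miR-181 5p strands are the main products of the family and share their seed. In mammals the family is known for its abundance in brain and in developing lymphocytes, where miR-181a sets the sensitivity of T-cell receptor signalling.

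The mature sequences show what can and cannot be told apart by sequencing (RefSeq, GRCm38.p6, 5′ to 3′, seed in capitals). The 5p strands carry 1 seed:
miR-181a-5p: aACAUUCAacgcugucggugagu
miR-181b-5p: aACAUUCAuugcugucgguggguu
miR-181c-5p: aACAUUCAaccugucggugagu
miR-181d-5p: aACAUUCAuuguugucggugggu

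The 3p strands, which are also shown because they name the gene copy, fall into 4 seed groups:
miR-181a-1-3p: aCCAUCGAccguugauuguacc
miR-181c-3p: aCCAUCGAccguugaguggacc
miR-181a-2-3p: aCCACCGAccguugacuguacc
miR-181b-1-3p: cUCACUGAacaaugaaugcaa
miR-181b-2-3p: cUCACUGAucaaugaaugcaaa
miR-181d-3p: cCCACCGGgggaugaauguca

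None of these 5 seeds was held by another mature mouse miRNA among 1679 names in the RefSeq table. The 5p strands are close relatives outside the seed as well. miR-181a-5p and miR-181c-5p differ by 1 base that is missing from miR-181c-5p. miR-181d-5p differs from miR-181b-5p by the substitution C12U, counted from the 5′ end of miR-181b-5p, and by 1 base fewer at the 3′ end. From miR-181a-5p to miR-181b-5p the changes are A9U, C10U and A21G, with 1 base added. How the authors' counting placed reads with a mismatch or a trimmed end is not given in the sources used here, so levels of a against c, and of b against d, are uncertain to the extent that such reads were shared.

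6 genes in 3 clusters make the family (GRCm38). On chromosome 1, Mir181a-1 (137966455 to 137966541, plus strand) lies 97 bases before Mir181b-1 (137966639 to 137966718). Both are in an intron of the noncoding gene Gm4258 on the same strand, and in an intron of the lincRNA Gm26936 on the opposite strand. Mir181b-1 is also within an exon of the lincRNA A430106G13Rik, with which Mir181a-1 overlaps in part. On chromosome 2, Mir181a-2 (38852735 to 38852810, plus strand) and Mir181b-2 (38853830 to 38853918) are 1019 bases apart. Both are opposite to an intron of Nr6a1, a gene for an orphan nuclear receptor, and Mir181b-2 is also opposite to an exon of Gm44144. On chromosome 8, Mir181c (84178873 to 84178961, minus strand) and Mir181d (84178716 to 84178787) are 85 bases apart in an intron of Nanos3, a germ-cell gene.

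The 5p strands of miR-181a and miR-181b are the same from both of their clusters, so their reads cannot be assigned to chromosome 1 or 2. The hairpins of the miR-181a genes, with the 2 mature arms in capitals, show that the 3p arm differs:
Mir181a-1: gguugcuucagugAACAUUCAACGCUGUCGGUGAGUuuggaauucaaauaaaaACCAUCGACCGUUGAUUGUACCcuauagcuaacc
Mir181a-2: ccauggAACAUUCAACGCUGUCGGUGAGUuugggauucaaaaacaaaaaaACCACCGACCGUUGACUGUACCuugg

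The 3p arms of these hairpins differ by U5C and U16C, counted from the 5′ end of miR-181a-1-3p, so miR-181a-1-3p reads come from chromosome 1 and miR-181a-2-3p reads from chromosome 2 where reads match in full.

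The deposited abundance of each genotype is a mean of normalised read counts. Over all rows the means add up to 8739148 for AC3-/- and to 12320877 for wild type, and stand for 19201686 to 20063529 reads in both AC3-/- libraries together and 21071945 to 23190561 in both wild-type libraries. The reads of each library were worked back from the means, with 1 solution for all 10 family rows. The libraries carry no replicate number and are called a and b. Wild-type library b stands apart over the profile. Among 449 miRNAs with library values that averaged 10 or more, it differed by 2-fold or more from each of the other 3 libraries for 95 to 116 miRNAs, while those 3 differed from each other for 26 to 52. For no family member of that level did the libraries of 1 genotype differ so much. Ligation and PCR favour some sequences, so the order of levels between miRNAs is an order of reads, not of molecules.

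miR-181a-5p was the most abundant member and took 69.6% of the family's normalised reads in AC3-/- and 72.8% in wild type. It ranked 51 of 1167 miRNAs in AC3-/- and 47 in wild type. The whole family held 0.270% of all normalised reads in AC3-/- and 0.235% in wild type, and the 5p strands made up 96.3% and 97.0% of it. The family's summed mean was lower in AC3-/-, at 23590.7 against 28965.1. Its share was higher there because the sum over all rows, 8739148 against 12320877, was lower by more.

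The 4 guide strands did not differ between the genotypes beyond the spread of the libraries. mmu-miR-181a-5p had 17243.5 (library a) and 15618 (library b) normalised reads in AC3-/-, against 25653.8 (library a) and 16532 (library b) for wild type. This order, a before b, is kept below. Wild-type library a was 1.55-fold above its partner, the AC3-/- libraries were 1.10-fold apart, and the genotypes overlapped. The genotype means were 16430.8 ± 1149.4 in AC3-/- and 21092.9 ± 6450.1 in wild type (SD, n = 2 each).

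mmu-miR-181b-5p had 3962.0 and 4431.1 normalised reads in AC3-/- and 5238.5 and 3762.0 in wild type. Wild-type library a again held the highest value, and library b the lowest. The mean was 4196.5 ± 331.7 in AC3-/- and 4500.2 ± 1044.1 in wild type (SD, n = 2 each).

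mmu-miR-181d-5p had 2086.4 and 1381.8 normalised reads in AC3-/- and 1964.7 and 2260.5 in wild type. Its low value was AC3-/- library b, and AC3-/- library a lay between the wild-type libraries. The mean was 1734.1 ± 498.3 in AC3-/- and 2112.6 ± 209.1 in wild type (SD, n = 2 each).

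mmu-miR-181c-5p had 359.8 and 355.0 normalised reads in AC3-/- and 292.2 and 465.4 in wild type. The AC3-/- values were 1.01-fold apart and lay between the wild-type values, which were 1.59-fold apart. The mean was 357.4 ± 3.4 in AC3-/- and 378.8 ± 122.5 in wild type (SD, n = 2 each).

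**Figure D1:**
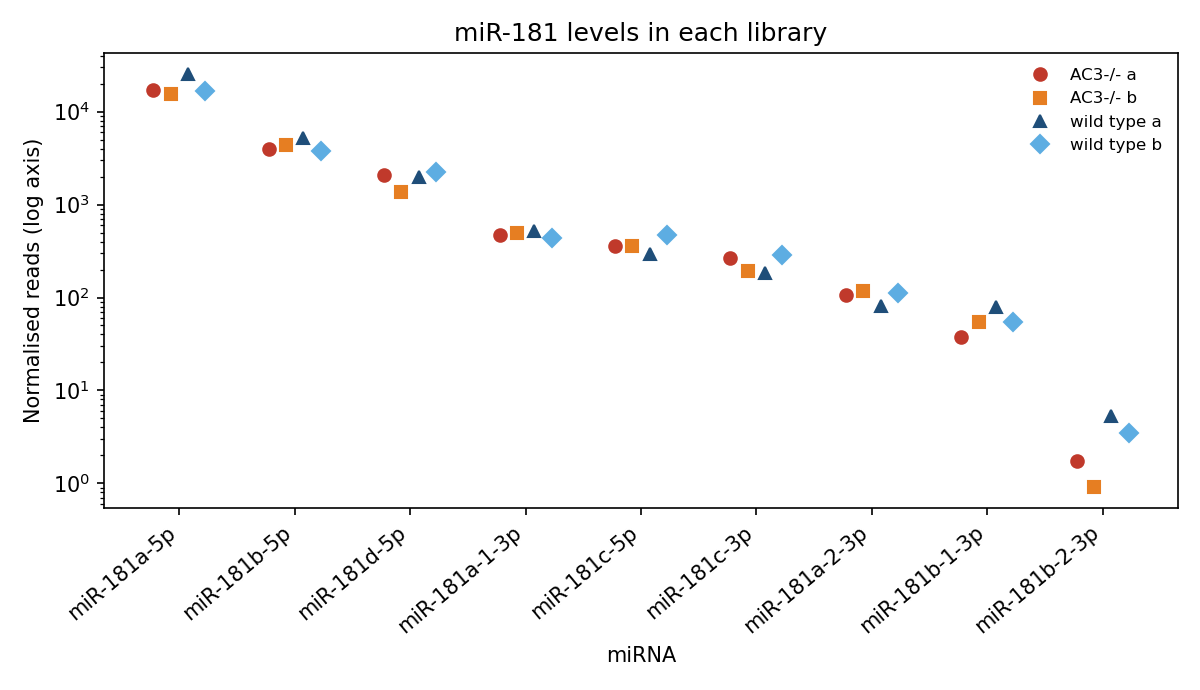
Normalised reads (log axis) of 9 miR-181 miRNAs in the 4 libraries, ordered by the wild-type mean; each point is 1 library, and miR-181d-3p, with 1 read in all, is not drawn. The genotypes overlap for miR-181a-5p through miR-181a-2-3p, while miR-181b-1-3p and the scarce miR-181b-2-3p are lower in both AC3-/- libraries.

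No family member passed the adjusted p of 0.05. An adjusted p under 0.05 was held by 0 of the 10 rows in the authors' deposited table, and an unadjusted p under 0.05 also by 0, where 0.0857% and 3.51% of all 1167 rows did. The smallest unadjusted p of the family there was 0.218, for miR-181b-2-3p, and the adjusted p ran from 0.940 to 0.989. A limma fit to log2(normalised reads + 1) of the libraries, over 449 miRNAs, called 0 of the 8 members with a mean of at least 10, and 0 had an unadjusted p under 0.05, against 0% and 3.56% of all 449.

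The intervals of that fit are wide. The limma log2 difference of AC3-/- from wild type was -0.33 for miR-181a-5p (standard error 0.26, 95% interval -0.98 to 0.32, adjusted p = 0.932). It was -0.08 for miR-181b-5p (-0.78 to 0.62), -0.05 for miR-181c-5p (-0.99 to 0.90) and -0.31 for miR-181d-5p (-1.14 to 0.52). All 4 intervals include 0 and reach beyond a 1.5-fold change in at least 1 direction.

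Taken as a list, 8 of the 10 rows had a log2 fold change under 0 in the authors' deposited table and 2 over 0, and the family's median was -0.11. Over all 1167 rows, many of them scarce, 50.5% lay below 0, with a median of -0.01. The family's median did not stand out against abundant miRNAs. The median log2 ratio of the deposited means was -0.10 over the 9 members with a value in both genotypes. It was also -0.10 over the 296 miRNAs with a mean of 100 or more. Of the 9, miR-181b-1-3p and miR-181b-2-3p were scarcer than that and had the lowest ratios, -0.55 and -1.73. 7 of the 9 members and 60.8% of the 296 lay below 0, and centred on the median of the 296 the counts were 5 of 9 and 50%. Setting both genotypes to the same summed mean adds 0.50 to every log2 ratio, which leaves 2 of the 9 members and 13.2% of the 296 below 0. In bulk tissue, fewer cells that make a miRNA and less of it per cell cannot be told apart.

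**Figure D2:**
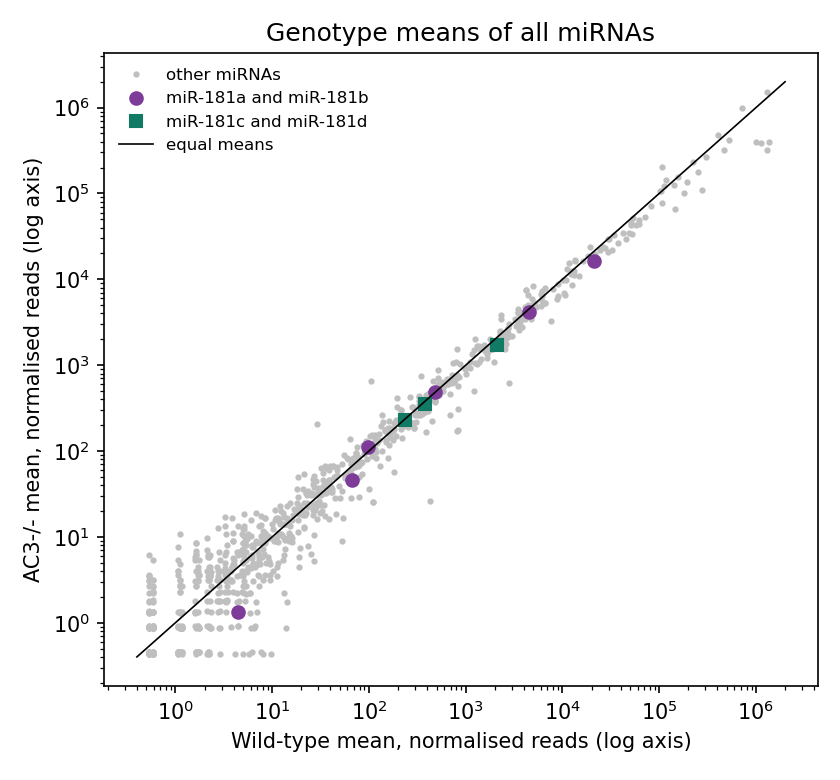
Mean normalised reads in AC3-/- against wild type (both log axes) for miRNAs above 0 in both genotypes; the line marks equal means. The miR-181a and miR-181b points and the miR-181c and miR-181d points lie in the cloud of other miRNAs along that line. miR-181b-2-3p, at 1.33 in AC3-/- and 4.41 in wild type, is farthest from the line in the family, and other scarce miRNAs lie farther from it.

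The a/b and c/d clusters were compared by the sum of miR-181a-5p and miR-181b-5p over the sum of miR-181c-5p and miR-181d-5p, a ratio that does not depend on how a library is scaled. It was 8.67 and 11.5 for the AC3-/- libraries, against 13.7 and 7.44 for wild type. The wild-type libraries were 1.84-fold apart and lay on either side of both AC3-/- values. The ratio of the genotype means was 9.86 in AC3-/- and 10.3 in wild type, a log2 difference of -0.06, against a pooled SD of 0.49 between libraries. An exact permutation test of the library values, two-sided, gave p = 1, and 0.33 is the smallest p that 2 libraries against 2 can give. Leaving out wild-type library a turned the log2 difference to 0.41, and leaving out wild-type library b gave -0.47. Without AC3-/- library a it was 0.17, and without AC3-/- library b it was -0.24.

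Counting error does not cover the spread between libraries of 1 genotype. The c/d strands made up 6.81% of 31197 miR-181 5p reads in wild-type library a (95% Wilson interval 6.53 to 7.09) and 11.8% of 19685 in wild-type library b (11.4 to 12.3). In AC3-/- the shares were 10.3% of 27150 reads (9.99 to 10.7) in library a and 7.97% of 23934 (7.64 to 8.32) in library b. All 4 intervals were apart from each other, and the AC3-/- values lay between the wild-type ones. Reads carry no molecular identifiers, so these intervals cover counting error only.

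Between the wild-type libraries most a/b strands went one way and the c/d strands the other. From wild-type library a to library b, miR-181a-5p, miR-181b-5p, miR-181a-1-3p, miR-181b-1-3p and miR-181b-2-3p were lower, by 0.63, 0.48, 0.27, 0.54 and 0.60 on the log2 scale. The value for miR-181b-2-3p rests on 5 and 3 reads. miR-181c-5p, miR-181c-3p and miR-181d-5p were higher, by 0.67, 0.65 and 0.20 on the log2 scale. The 3p arm of the chromosome 2 copy, miR-181a-2-3p, was also higher, by 0.46. With 1 library on each side this has no test. In the AC3-/- pair most a/b strands also went against the c/d strands, with other exceptions. From library a to library b all 3 c/d strands were lower, miR-181c-5p by only 0.02. miR-181b-5p, miR-181a-1-3p, miR-181a-2-3p and miR-181b-1-3p were higher. The exceptions were miR-181a-5p, lower by 0.14, and miR-181b-2-3p, lower with 2 and 1 reads. The letters a and b are not matched between the genotypes, so the direction itself cannot be compared.

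**Figure D3:**
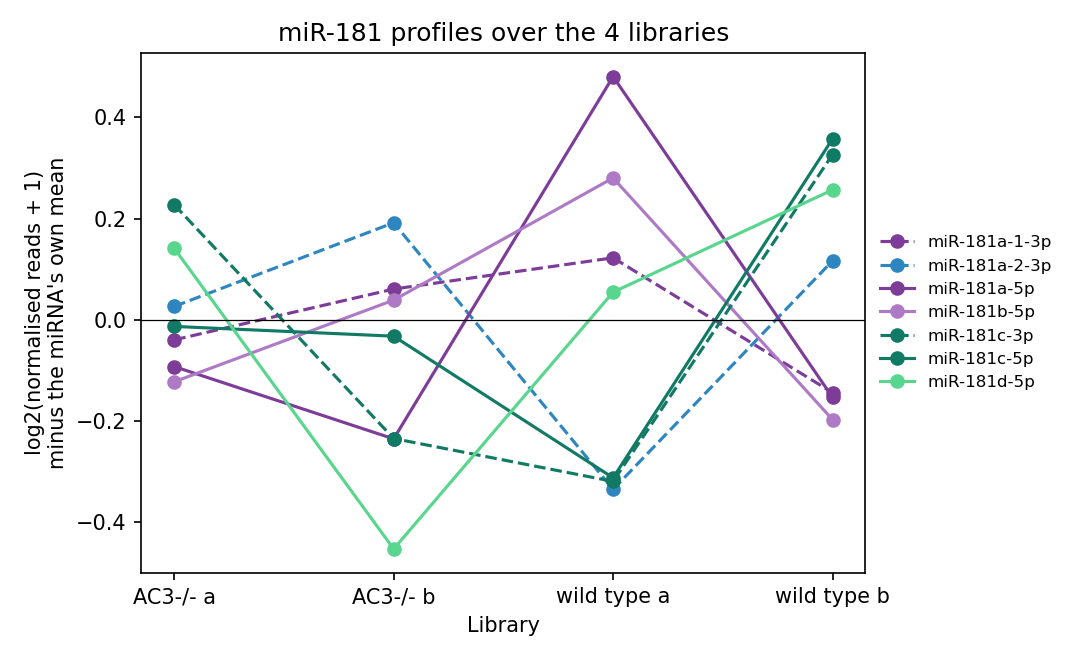
log2(normalised reads + 1) of each miR-181 miRNA with a mean of at least 100, minus its own mean over the 4 libraries; lines only join the points of 1 miRNA. In wild-type library a, miR-181a-5p, miR-181b-5p and miR-181a-1-3p are above 0 and miR-181c-5p, miR-181c-3p and miR-181a-2-3p below it, and in wild-type library b these signs are reversed.

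Ratios were also taken between guide strands of the same cluster type. The ratio of miR-181d-5p to miR-181c-5p, whose genes are 85 bases apart, was 5.80 and 3.89 in AC3-/- and 6.72 and 4.86 in wild type. The genotypes overlapped (exact permutation p = 0.667). The ratio of miR-181a-5p to miR-181b-5p was 4.35 and 3.52 in AC3-/- and 4.90 and 4.39 in wild type. These values did not overlap, but AC3-/- library a and wild-type library b were nearly equal, and the exact permutation p was 0.33, the smallest possible. Between the genotype means the log2 difference of this ratio was -0.26, with a pooled SD of 0.17.

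The 3p strands give a view of the single gene copies. mmu-miR-181a-1-3p, from chromosome 1, had 465.2 and 498.8 normalised reads in AC3-/- and 520.7 and 432.7 in wild type. The wild-type values enclosed the AC3-/- values, and the limma log2 difference was 0.02 (95% interval -0.79 to 0.84). mmu-miR-181a-2-3p, from chromosome 2, had 105.4 and 118.3 in AC3-/- and 81.8 and 112.3 in wild type. Here wild-type library a was the low value, and the limma log2 difference was 0.22 (-0.66 to 1.10).

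The chromosome 1 strand exceeded the chromosome 2 strand in every library. Their ratio was 4.41 and 4.22 in AC3-/- and 6.36 and 3.85 in wild type, with a log2 difference of -0.19 between the genotype means (exact permutation p = 1). Wild-type library a was the high value, and the log2 difference turned to 0.16 when it was left out, against -0.56 when wild-type library b was. miR-181a-2-3p made up 13.6% of 567 miR-181a 3p reads in wild-type library a (95% Wilson interval 11 to 16.6) and 18.5% to 20.6% in the other 3. The 3p level also depends on how much of each arm is kept, so this order is not one of transcription.

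The miR-181b 3p strands were the members whose genotypes did not overlap. miR-181b-1-3p had 37.5 and 54.6 normalised reads in AC3-/- and 79.7 and 55.0 in wild type (43, 60, 75 and 47 reads). AC3-/- library b and wild-type library b differed by less than the value of 1 read, 0.910 and 1.17 normalised reads in these libraries. The limma log2 difference was -0.54 (95% interval -1.55 to 0.48, adjusted p = 0.932), and the authors' deposited table gives a log2 fold change of -0.44 with p = 0.277. Of the 449 miRNAs with a mean of at least 10, 33.6% had genotypes that did not overlap and 16.9% were lower in both AC3-/- libraries, so 1 such member among 8 is no more than the background.

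miR-181b-2-3p was near the limit of detection, with 2 and 1 reads in AC3-/- and 5 and 3 in wild type (1.74, 0.910, 5.31 and 3.51 normalised reads). Exact Poisson 95% intervals ran from 0.211 to 6.29 normalised reads in AC3-/- library a and from 1.73 to 12.4 in wild-type library a, so they overlapped. In the range of a mean of 1 to 10, 18.5% of 330 miRNAs were lower in both AC3-/- libraries. miR-181d-3p had 1 read, in wild-type library a, and 0 in the other libraries. For a count of 0 the exact Poisson 95% interval reached up to 3.21 normalised reads in AC3-/- library a, 3.36 in AC3-/- library b and 4.31 in wild-type library b.

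mmu-miR-181c-3p was the 3p strand closest in level to its guide. It had 267.4 and 193.9 normalised reads in AC3-/- and 182.8 and 286.5 in wild type. The wild-type values enclosed the AC3-/- values, as for miR-181c-5p. The ratio of miR-181c-5p to miR-181c-3p was 1.35 and 1.83 in AC3-/- and 1.60 and 1.62 in wild type. The wild-type libraries were nearly equal here, while the strands themselves differed between them 1.59-fold and 1.57-fold, and the exact permutation p was 1. By contrast miR-181a-5p exceeded the summed miR-181a 3p strands 30.2-fold and 25.3-fold in AC3-/- and 42.6-fold and 30.3-fold in wild type.

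For miR-181b the guide exceeded the summed 3p strands 101.1-fold and 79.8-fold in AC3-/- and 61.6-fold and 64.3-fold in wild type. Both AC3-/- values were above both wild-type values, with a log2 difference of 0.50 between the genotype means and a pooled SD of 0.17. The genotypes overlapped for miR-181b-5p itself, and the summed 3p strands rest on 3 to 8 reads of miR-181b-2-3p per genotype and 103 to 122 of miR-181b-1-3p. Of 12 ratios within the family, 5 had genotypes that did not overlap, each with an exact permutation p of 0.33, the smallest possible. For comparison, 33.6% of the 449 single miRNAs with a mean of at least 10 had genotypes that did not overlap. The ratios share members and are not independent. The smallest permutation p after Benjamini-Hochberg adjustment over the 12 was 0.8. No adjusted value could be below 0.33, so this test cannot decide whether any ratio differed.

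**Figure D4:**
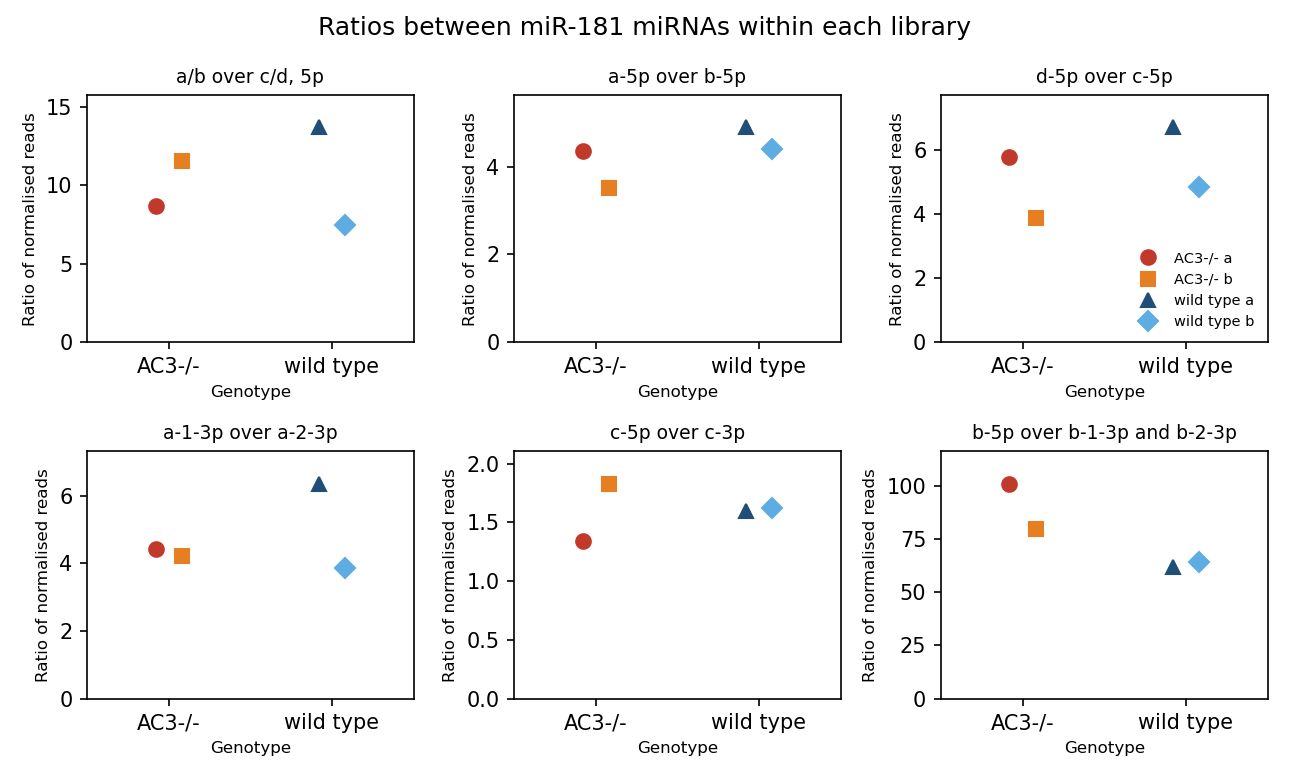
6 of the 12 ratios between miR-181 miRNAs within each library (axes from 0); each point is 1 library. For the a/b strands over the c/d strands the wild-type libraries, 13.7 and 7.44, enclose the AC3-/- libraries, and for miR-181b-5p over its 3p strands both AC3-/- libraries, 101.1 and 79.8, lie above both wild-type libraries.

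The miRNAs outside the family with the most similar profiles were found by the root mean square difference of centred log2(normalised reads + 1) over the 4 libraries, among 246 with a mean of at least 100. For miR-181a-5p they were miR-542-3p (0.102), miR-194-5p and miR-145a-3p, with a median over all 246 of 0.377. For miR-181b-5p they were miR-23a-3p (0.0434), miR-345-3p and miR-27b-5p. For miR-181a-1-3p they were miR-17-5p (0.0330), miR-23b-3p and miR-17-3p, and for miR-181a-2-3p they were miR-26a-2-3p (0.0592), miR-532-3p and miR-125a-5p.

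The c/d strands had other neighbours. For miR-181c-5p they were miR-30a-3p (0.0448), miR-1981-5p and miR-22-5p, and for miR-181c-3p they were miR-335-3p (0.0767), miR-6540-5p and miR-22-5p. For miR-181d-5p they were miR-1b-5p (0.0501), miR-1a-3p (0.0502) and miR-133a-3p (0.0713). miR-1b-5p and miR-1a-3p had nearly the same value in every library and count as 1 observation. Within the family the nearest pair was miR-181b-5p and miR-181a-1-3p at 0.0937, and the farthest was miR-181a-5p and miR-181c-3p at 0.493. With 4 libraries these distances are a description.

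Markers of cell types that the dissected tissue could hold were set beside the family. miR-1a-3p and miR-133a-3p are made in striated muscle. Of the 3 striated muscle markers, miR-206-3p was at 0 in AC3-/- library b, with 20 reads in AC3-/- library a and 4 and 24 in the wild-type libraries. Summed, the 3 had 6537 and 4389 normalised reads in AC3-/- and 6603 and 7011 in wild type, with AC3-/- library b lowest, as for miR-181d-5p. Most of this sum was miR-1a-3p, with 6276 and 4241 in AC3-/- and 6396 and 6723 in wild type. miR-1a-3p and miR-133a-3p were picked above for their likeness to miR-181d-5p, so the likeness of the sum is no separate finding. The cartilage sum given below was also lowest in AC3-/- library b. The part of muscle markers in the miR-181d-5p values was not tested.

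The 6 leukocyte markers, which include miR-142a-3p and miR-150-5p, summed to 15694 and 20157 normalised reads in AC3-/- and 17861 and 6369 in wild type. The 3 multiciliated-cell markers with library values summed to 5446 and 8137 in AC3-/- and 11619 and 1174 in wild type. Both lists were lowest in wild-type library b, where miR-181a-5p and miR-181b-5p were below wild-type library a. The red blood cell sum and the endothelial and smooth muscle sum, given below, were also lowest in that library. The part of any of these lists in that miR-181 difference was not tested. In wild-type library b the leukocyte and multiciliated-cell sums, miR-181b-5p and miR-181a-1-3p lay below both AC3-/- libraries, and miR-181a-5p lay between them.

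The other lists are given for completeness of the tissue. The 3 red blood cell markers summed to 6068 and 4644 in AC3-/- and 5519 and 3081 in wild type, and the 2 of 4 endothelial and smooth muscle markers with library values to 17950 and 18149, and 16732 and 12308. The 4 of 5 neuronal markers with library values summed to 4886 and 5428, and 4177 and 5081. The 2 of 3 cartilage markers with library values summed to 4158 and 4102, and 4660 and 4701. The 6 markers of the olfactory sensory epithelium (miR-183, miR-182, miR-96, miR-200a, miR-200b and miR-429) were all present and held 19.3% of the normalised reads in AC3-/- and 42.3% in wild type, but could not be split into libraries. Of these 34 markers in 8 lists, 1 passed the adjusted p in the authors' deposited table, higher in AC3-/-, and 0 lower, against 0.0857% of all 1167 rows. It was miR-124-3p of the neuronal list. That list's median log2 fold change was 0.05, and miR-124-3p alone of its 5 markers had an unadjusted p under 0.05. An unadjusted p under 0.05 was held in the authors' deposited table by 4 of the 6 olfactory sensory epithelium markers, all lower in AC3-/-. Of all 1167 rows 3.51% had such a p in either direction. The median log2 fold change of the olfactory sensory epithelium list was -0.92.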

How the data were processed

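Small RNA of the main olfactory epithelium was sequenced in 2 wild-type and 2 AC3-/- libraries. Per the labels' protocols, RNA was extracted with Trizol, adaptors were ligated to both ends, and PCR products were selected by length on a gel. The authors deposited 1 comparison table; Bowtie, DESeq 1.8.3 and the build GRCm38 appear in the submitters' processing notes, without role or order. Its abundance columns hold a signal, the mean normalised read count of a genotype, per the file headers and from the form of the values. It also holds the authors' deposited log2 fold change, which is shrunken toward 0, with the authors' p-value. Their adjusted p-value is that of Benjamini and Hochberg, taken over the whole table of 1167 rows. How reads were counted is not given in the sources used here.

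As main result served the authors' test at an adjusted p of 0.05. Whole reads per library were recovered by solving each deposited mean, printed to 10 digits, as a whole-number combination of the values of 1 read in the 2 libraries. 1125 of 1167 AC3-/- rows and 1134 wild-type rows had 1 solution, and 1124 had it in both. Size factors came to 1.148 (a) and 1.099 (b) for AC3-/-, and 0.941 (a) and 0.855 (b) for wild type. limma 3.58.1 (R 4.3.3) was fitted to log2(normalised value + 1), trended by intensity, where the mean was 10 or more. The recovery and the fit were tested on simulated data. All simulated libraries had the same spread, so the fit was not tested with a library that stands apart, as wild-type library b does. Adding 1 understates the change of low miRNAs. Ratios within a library were compared by exact permutation in Python 3.11.15. Named miRNAs are the members and the 3 nearest profiles of each member with a mean of at least 100. Members, lists and tests were chosen with earlier results of these data known. No columns of single samples were left unused (0).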

Additional observations from a re-analysis of the deposited data

How the results depend on the processing

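No family member was called under any setting run: an unadjusted p, adjustment over miRNAs averaging 10 or more, the 7 members named with the rule (chosen after seeing the data), or limma with and without a filter, with a pseudocount of 10, without the intensity trend, or with each library left out. Over all 449 miRNAs limma called 0 with every library, 63 without wild-type library a, 2 without wild-type library b and 0 without either AC3-/- library. Without wild-type library b, miR-181a-5p had a limma log2 difference of -0.64 with an adjusted p of 0.229, where the 1 wild-type library left is taken to vary as the AC3-/- libraries do; its unadjusted limma p, 0.00266, was the one under 0.05 in the family. Over the settings of this fit the smallest adjusted p in the family ran from 0.229 to 0.999. The median log2 ratio of the genotype means was -0.10 over 9 members, ran from -0.28 to -0.07 with 1 library left out, and was 0.39 with total scaling, since that scaling shifts every miRNA by 0.50. The log2 difference of the a/b over c/d ratio, -0.06, ran from -0.47 to 0.41 with 1 library left out. Its sign changed without wild-type library a and also without AC3-/- library a. The log2 difference of miR-181a-1-3p over miR-181a-2-3p, -0.19, ran from -0.56 to 0.16. Of 116 alternatives for single members and arm ratios, 18 moved a value by more than 1 SD between libraries: 8 with total scaling, 8 with a library left out and 2 for miR-181b-2-3p; the cause was not tested. No paired analysis was possible because the deposited columns carry no replicate number.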
